A study of Mus musculus with 24 samples.

Results

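The genes described are 8 that encode channels, a pump subunit and a regulator by which the lung moves salt and water: Scnn1a, Scnn1b, Scnn1g, Aqp1, Aqp5, Atp1b1, Cftr and Nedd4l. They were chosen by name, and all 8 were found by Ensembl identifier among the 36109 genes of the lung table and the 36595 genes of the retina table. Messenger RNA was sequenced from whole lungs and whole retinas of neonatal C57/B6 mice, 24 mice in all, with 3 mice in each of 4 groups per tissue. WT mice and GSDMD-KO mice, littermates from heterozygous matings, formed the groups WT-RA and KO-RA in room air and the groups WT-O2 and KO-O2 under hyperoxia. The GSDMD-KO mice were homozygous for a CRISPR/Cas9 deletion within an exon of Gsdmd, the gene of the pore-forming protein gasdermin D, and carried it in every cell. For the lung, a model of bronchopulmonary dysplasia, hyperoxia was 85% oxygen from postnatal day 1 to 14, room air was 21% oxygen, and lungs were collected on day 15. For the retina, a model of retinopathy of prematurity, hyperoxia was 75% oxygen from day 7 to 12 followed by recovery in room air, and retinas were collected on day 18. The hyperoxic retinas, unlike the lungs, were thus collected after a recovery.

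The air spaces of the lung are kept nearly dry by active sodium transport. Sodium enters epithelial cells through the epithelial sodium channel ENaC, built from an alpha, a beta and a gamma subunit (Scnn1a, Scnn1b and Scnn1g), and is pumped out on the other side by the Na,K-ATPase, whose beta-1 subunit is Atp1b1. Water follows by osmosis, in part through the aquaporins Aqp5, of the alveolar type 1 cell, and Aqp1, which in the lung is mainly a protein of the microvascular endothelium and is also abundant in red blood cells. Chloride passes through the cAMP-regulated channel CFTR, and the ubiquitin ligase Nedd4l removes ENaC from the cell surface. In the retina the same pump sustains the ion gradients of neurons and photoreceptors, and Aqp1 is known from photoreceptors and some amacrine cells.

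In mouse build GRCm38 with the GENCODE M21 annotation, Scnn1g (ENSMUSG00000000216, chr7:121734479-121768475) and Scnn1b (ENSMUSG00000030873, chr7:121865038-121918514) are neighbours on the plus strand of chromosome 7, 96562 bp apart. Scnn1a (ENSMUSG00000030340, chr6:125320659-125344943), Aqp1 (ENSMUSG00000004655, chr6:55336432-55348555) and Cftr (ENSMUSG00000041301, chr6:18170687-18322768) lie on the plus strand of chromosome 6, far apart from each other. Aqp5 (ENSMUSG00000044217) is at chr15:99590782-99594829 on the plus strand and Atp1b1 (ENSMUSG00000026576) at chr1:164437109-164458355 on the minus strand, and Nedd4l (ENSMUSG00000024589) is on chromosome 18. The values below count RNA from whole genes.

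The promoter sequences of Scnn1g and Scnn1b, whose RNA rose together in hyperoxic lungs, and of Aqp1, whose RNA fell, are shown to set beside these opposite responses. Each is the 250 bases before the RefSeq start of the gene in GRCm38.p6, on the plus strand, 5′ to 3′. Capitals were kept for matches to ACGTG, the core of the hypoxia response element, and to TGTTCT, a part of the glucocorticoid response element, on either strand, and none of these windows held either.

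Scnn1g, chr7:121734229-121734478: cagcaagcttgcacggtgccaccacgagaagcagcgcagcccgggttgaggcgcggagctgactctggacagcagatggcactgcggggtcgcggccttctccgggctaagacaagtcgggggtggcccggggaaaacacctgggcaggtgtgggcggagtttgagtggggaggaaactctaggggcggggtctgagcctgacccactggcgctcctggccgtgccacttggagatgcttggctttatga
Scnn1b, chr7:121864788-121865037: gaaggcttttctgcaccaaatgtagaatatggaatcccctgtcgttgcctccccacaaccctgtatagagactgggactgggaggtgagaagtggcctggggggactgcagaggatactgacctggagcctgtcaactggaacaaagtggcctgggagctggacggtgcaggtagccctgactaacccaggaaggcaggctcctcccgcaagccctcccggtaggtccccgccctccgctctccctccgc
Aqp1, chr6:55336049-55336298: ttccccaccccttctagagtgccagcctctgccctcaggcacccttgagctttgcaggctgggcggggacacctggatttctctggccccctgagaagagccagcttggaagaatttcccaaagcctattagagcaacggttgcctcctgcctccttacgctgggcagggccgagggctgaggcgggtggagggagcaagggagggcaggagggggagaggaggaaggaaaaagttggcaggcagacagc

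Windows of this kind were at hand for 6 of the 8 genes, the others being Aqp5, Atp1b1 and Cftr. ACGTG occurred in the Aqp5 window only, with 3 matches, of which a pair overlap on opposite strands at 82 to 87 bases before the RefSeq start and the other lies at 171 to 175 bases before it. This window, chr15:99590778-99591027, overlaps the Aqp5 gene as GENCODE annotates it, from position 99590782, so all 3 matches lie inside that annotated gene. TGTTCT occurred in none of the 6 windows. Over all 32851 RefSeq promoter windows of this length, 16.6% held ACGTG and 16.1% held TGTTCT. Scnn1g and Scnn1b windows were rich in G and C, at 65.2% and 60.8%, and that of Aqp1 at 62.0%. A match, or its absence, describes only these letters in these windows.

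Assigned counts summed to between 28763661 and 29604254 per lung and between 24863257 and 29093035 per retina. The tissues matched their labels: surfactant protein C (Sftpc) lay between 8170 and 15000 CPM, the counts of a gene scaled to a common library total, in the lungs and was at 1.31 CPM or less in the retinas, and the photoreceptor arrestin Sag lay between 3130 and 5380 CPM in the retinas and was at 1.49 CPM or less in the lungs. Gsdmd, the deleted gene, was counted at 41.4 ± 0.883, 34.4 ± 2.15, 23.97 ± 1.19 and 13.7 ± 2.38 CPM in WT-RA, WT-O2, KO-RA and KO-O2 lungs and at 2.40 ± 1.85, 4.14 ± 1.42, 0.796 ± 0.173 and 1.83 ± 0.982 CPM in the retinas (SD, n = 3). These are counts over the whole gene, in which reads of the deleted bases cannot be singled out. Y-linked expression was present in 0, 1, 2 and 3 of the 3 lungs of those groups, and in 3, 1, 3 and 1 of the 3 retinas. It thus moved with genotype in the lung, where within each genotype it also moved with exposure, and with exposure in the retina. 3 retinas stood apart by crystallins and other lens genes, which summed to 23840 and 77080 CPM in WT-RA replicates 2 and 3 and to 36740 CPM in KO-RA replicate 3 against 8.57 to 344.7 CPM in the other 9. In the lung, KO-O2 replicate 1 held 177.7 CPM of liver genes, against 3.574 CPM or less in the other 11.

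All 8 genes were expressed in the lung. Levels per kilobase of the main annotated transcript are given to set different genes side by side. This division takes counts to grow with transcript length. On this scale Aqp1 led the WT-RA lungs at 343.3 ± 19.9 CPM per kb (SD, n = 3). Aqp5 followed at 122.7 ± 4.63, Scnn1a at 121.0 ± 28.5 and Atp1b1 at 88.1 ± 26.7 CPM per kb, levels that did not differ beyond the spread of neighbours in this order. Scnn1g stood at 51.3 ± 9.69 and Scnn1b at 40.5 ± 4.54 CPM per kb, which also overlapped, and Nedd4l at 19.6 ± 2.88 CPM per kb. Cftr was lowest at 1.47 ± 0.137 CPM per kb. In WT-O2 lungs the order at the top was turned, with Scnn1a at 211.6 ± 10.9 and Aqp1 at 179.6 ± 19.0 CPM per kb, and Scnn1b, at 101.6 ± 1.36, stood above Scnn1g, at 92.2 ± 3.23 CPM per kb. This order of Scnn1b and Scnn1g rests on the division by length, since undivided they were at 251.9 and 275.8 CPM.

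Whether prolonged hyperoxia altered these genes in the lung was asked first in WT mice. RNA of all 3 ENaC subunits rose, Scnn1b the most, Aqp1 fell 1.91-fold, and Cftr rose slightly, while Aqp5, Atp1b1 and Nedd4l did not pass the test. A gene is said to have risen or fallen where its adjusted p was under 0.1 in edgeR's quasi-likelihood test of all 16819 genes with Benjamini-Hochberg adjustment. Of the 8 genes 5 passed, 4 higher and 1 lower, where 49.2% of all tested genes passed, 24.5% higher and 24.7% lower. A count of 5 is thus close to what the rest of the genome gave, and the size and direction of each gene's change, not their number, are what the following values show. The median log2 fold change over the 8 genes was 0.29 against -0.01 over all genes. Where room air and hyperoxic lungs are said not to overlap, this held for 49.8% of all genes in WT.

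**Figure D1:**
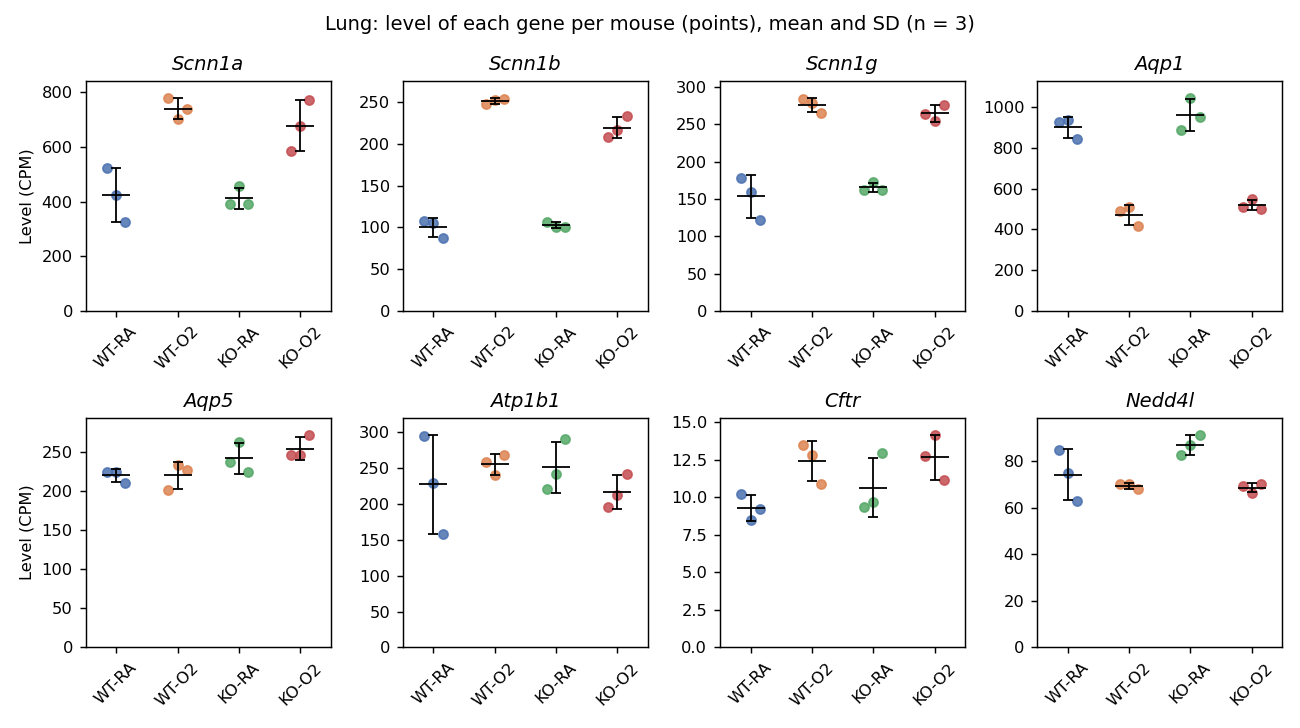
Level of each of the 8 genes in every lung, in CPM (linear axis from 0), by group; points are mice, and the line and bars are the mean and SD of 3 mice. The hyperoxic lungs of both genotypes sit above the room air lungs for Scnn1a, Scnn1b and Scnn1g and below them for Aqp1, with no overlap, whereas Aqp5 and Atp1b1 overlap.

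Scnn1b, the beta subunit, was measured at 108.1, 105.5 and 87.4 CPM in the 3 WT-RA lungs and at 248.0, 253.4 and 254.2 CPM in the 3 WT-O2 lungs. The lowest hyperoxic lung thus held over double the RNA of the highest room air lung. The log2 fold change was 1.33 (SE, the standard error, 0.086, adjusted p = 4.1e-08), a 2.51-fold rise, and the only one of the 8 to reach the study's fold threshold of 2, which 11.6% of all genes reached together with the adjusted p.

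Scnn1a, the alpha subunit without which ENaC hardly conducts, was measured at 523.0, 423.2 and 323.7 CPM in WT-RA and at 779.1, 703.2 and 739.0 CPM in WT-O2 lungs. Its room air mice were widely spread, but none reached the hyperoxic range. Its log2 fold change was 0.81 (SE 0.15, adjusted p = 0.00062), or 1.75-fold. Scnn1g, the gamma subunit, was at 178.8, 159.8 and 121.9 CPM in WT-RA and at 283.9, 278.3 and 265.1 CPM in WT-O2 lungs, again without overlap. It rose 1.80-fold (log2 0.85, SE 0.11, adjusted p = 3e-05). WT-RA replicate 3 was the lowest lung for all 3 subunits, and without it the WT log2 fold changes of all 3 still passed.

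Aqp1, the water channel of the capillary endothelium, was at 928.5, 935.7 and 841.6 CPM in WT-RA and at 489.6, 510.3 and 415.4 CPM in WT-O2 lungs. Every hyperoxic lung was below every room air lung by a wide margin. The log2 fold change was -0.94 (SE 0.096, adjusted p = 3.4e-06), a 1.91-fold fall.

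Aqp5, the water channel of the type 1 cell surface, was at 225.3, 225.3 and 210.9 CPM in WT-RA and at 201.3, 233.9 and 226.9 CPM in WT-O2 lungs. The groups overlapped, and the 95% interval of its log2 fold change ran from -0.18 to 0.19 (adjusted p = 0.99). Atp1b1, the pump's beta-1 subunit, was at 295.1, 229.7 and 157.4 CPM in WT-RA and at 257.7, 239.7 and 267.7 CPM in WT-O2 lungs. Its room air mice spanned the hyperoxic ones, and the interval ran from -0.23 to 0.56 (adjusted p = 0.49). Without WT-RA replicate 1 its log2 fold change would be 0.40 (adjusted p = 0.06), and without WT-RA replicate 3 it would be -0.04.

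Cftr was at 10.2, 8.47 and 9.22 CPM in WT-RA and at 13.5, 12.8 and 10.9 CPM in WT-O2 lungs. The groups did not overlap, though WT-O2 replicate 3 was close to the room air range. Its log2 fold change of 0.42 (SE 0.15, adjusted p = 0.034) lost the call, with an adjusted p of 0.11, when either WT-RA replicate 2 or WT-O2 replicate 1 was left out. Nedd4l was at 84.6, 74.99 and 62.8 CPM in WT-RA and at 70.1, 70.3 and 67.8 CPM in WT-O2 lungs. The hyperoxic mice lay inside the room air range, and the interval of the log2 fold change ran from -0.29 to 0.10 (adjusted p = 0.44). Without WT-RA replicate 3 it was -0.20 (adjusted p = 0.056).

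The same question in GSDMD-KO lungs gave rises of the 3 ENaC subunits and a fall of Aqp1 of like size, and here Nedd4l fell as well. 5 of the 8 genes passed, 3 higher and 2 lower, where 46.7% of all genes passed, 23.3% higher and 23.4% lower, and 52.4% did not overlap. The median log2 fold change over the 8 was 0.16 against -0.01 over all genes. Scnn1b went from 106.6, 100.3 and 100.6 CPM in KO-RA to 208.8, 217.2 and 233.7 CPM in KO-O2 lungs. All hyperoxic lungs were again about double the room air ones, and the log2 fold change was 1.10 (SE 0.086, adjusted p = 3e-07), or 2.15-fold. It was again the only one of the 8 to pass with a fold of 2 or more, as 10.6% of all genes did.

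Scnn1a went from 389.4, 456.2 and 391.3 CPM in KO-RA to 584.0, 676.4 and 770.4 CPM in KO-O2 lungs. KO-O2 replicate 1, the lung with liver RNA, was its lowest hyperoxic value, still above all room air lungs, and the log2 fold change was 0.72 (SE 0.15, adjusted p = 0.0016). Scnn1g went from 161.8, 172.4 and 162.6 CPM to 263.8, 254.0 and 276.6 CPM, a log2 fold change of 0.68 (SE 0.11, adjusted p = 0.00023). Aqp1 went from 889.7, 1045 and 950.1 CPM to 511.9, 548.8 and 502.0 CPM. No hyperoxic lung came near the room air range, and the log2 fold change was -0.88 (SE 0.096, adjusted p = 6.4e-06).

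Nedd4l, whose protein limits ENaC at the cell surface, was at 82.8, 87.1 and 91.3 CPM in KO-RA and at 69.2, 66.4 and 70.1 CPM in KO-O2 lungs. The groups did not overlap, and it fell by 0.35 on the log2 scale (SE 0.092, adjusted p = 0.0085). That it passed in GSDMD-KO and not in WT lungs does not show a difference between the genotypes, and the interaction, given below, did not pass. Cftr was between 9.32 and 12.9 CPM in KO-RA and between 11.1 and 14.1 CPM in KO-O2 lungs, which overlapped, with a log2 fold change of 0.25 (adjusted p = 0.19). Without KO-RA replicate 3 it was 0.41 (adjusted p = 0.041). Aqp5 (log2 0.07, interval -0.11 to 0.26) and Atp1b1 (log2 -0.21, interval -0.60 to 0.18) did not pass, and their groups overlapped.

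**Figure D2:**
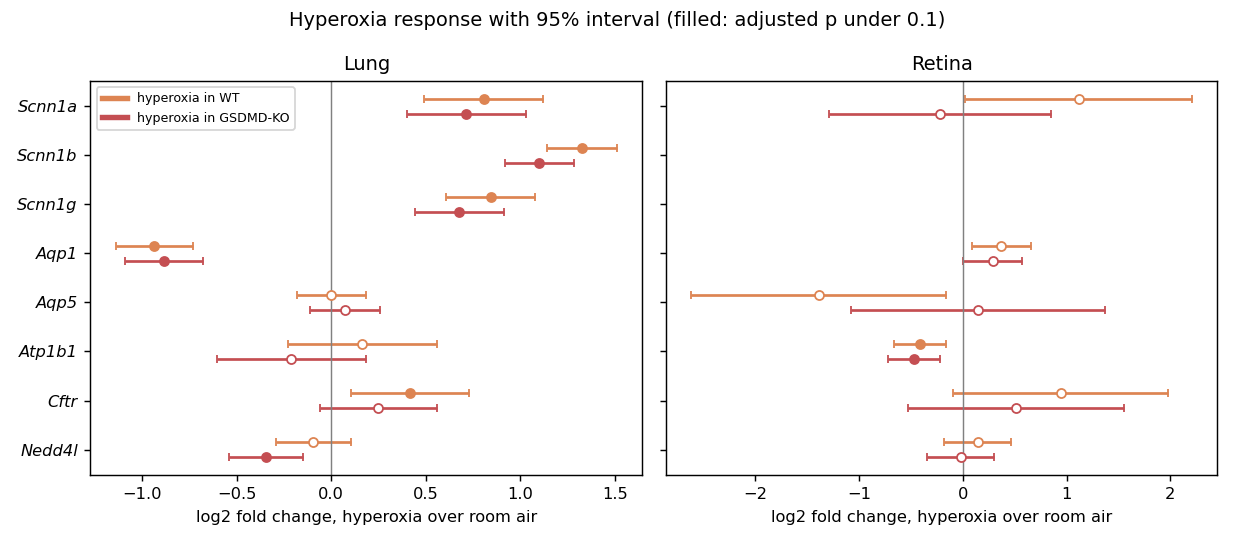
Log2 fold change of each gene, hyperoxia over room air, with its 95% interval, in lung (left) and retina (right, on its own scale); orange marks WT and red GSDMD-KO mice, and filled points had an adjusted p under 0.1. In the lung the intervals of the ENaC subunits and Aqp1 lie clear of 0 in both genotypes, and in the retina, where Scnn1b and Scnn1g were too low to be fitted, Atp1b1 alone is filled.

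Ratios between the subunits were taken after Scnn1b had been seen to change most, so they are given as a description only, without p-values. The ratio of Scnn1b to Scnn1a counts was 0.242 ± 0.0323 in WT-RA and 0.341 ± 0.0212 in WT-O2, and 0.250 ± 0.0276 in KO-RA and 0.327 ± 0.0276 in KO-O2 lungs (SD, n = 3). Scnn1b to Scnn1g moved likewise, from 0.661 ± 0.0563 to 0.914 ± 0.0426 in WT and from 0.620 ± 0.0385 to 0.830 ± 0.0342 in GSDMD-KO lungs. Scnn1g to Scnn1a stayed at 0.365 ± 0.0203, 0.373 ± 0.0199, 0.403 ± 0.0217 and 0.395 ± 0.0495 in WT-RA, WT-O2, KO-RA and KO-O2 lungs. Hyperoxic and room air lungs did not overlap in either genotype for the ratios that hold Scnn1b. The mean log2 difference between exposures was 0.45 for each of these ratios and -0.001 for Scnn1g to Scnn1a. The ratios do not correct for transcript length.

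RNA of cell type markers differed between the same groups, and in whole tissue fewer cells of a type and less RNA per cell cannot be told apart. A list of 9 general epithelial genes (Epcam, Cdh1, Nkx2-1, keratins and claudins) summed to between 1012 and 1096 CPM in WT-RA and 1405 and 1529 CPM in WT-O2 lungs. In GSDMD-KO lungs it summed to between 1034 and 1065 CPM in room air and 1422 and 1626 CPM in hyperoxia. In each genotype 8 of the 9 genes rose. The median log2 fold change of the 9 was 0.57 in WT lungs and 0.52 in the knockout. Single members differed widely, Cldn4, a claudin of tight junctions, being at 5.15 ± 0.319 CPM in WT-RA and 14.7 ± 4.95 CPM in WT-O2 lungs, and Cdh1, the adhesion protein E-cadherin, at 200.5 ± 13.5 CPM in KO-RA and 374.9 ± 21.5 CPM in KO-O2 lungs. Nkx2-1 was at 183.0 ± 5.125 CPM in WT-RA and 164.4 ± 13.9 CPM in WT-O2 lungs. In GSDMD-KO lungs Nkx2-1 was at 167.0 ± 1.91 CPM in room air and 176.1 ± 5.435 CPM in hyperoxia. The 11 genes of alveolar type 1 cells, the cells of Aqp5, summed to between 6892 and 7794 CPM in WT-RA and 6613 and 7438 CPM in WT-O2, which overlapped, and to between 6797 and 7277 CPM in KO-RA and 7285 and 7657 CPM in KO-O2 lungs, which did not. Its members moved both ways, 4 rising and 4 falling in WT and 4 rising and 3 falling in GSDMD-KO lungs. Type 2 cell genes were lower in hyperoxia, at 22100 CPM on average in WT-RA and 16860 in WT-O2, and at 22250 in KO-RA and 15660 in KO-O2, and 5 of the 10 fell in each genotype. Airway genes summed to 12020 to 14500 CPM in WT-RA, 10030 to 10790 in WT-O2, 11370 to 14310 in KO-RA and 7691 to 11460 CPM in KO-O2 lungs. Most of this sum was Scgb1a1, the secretoglobin of club cells, at 11080 CPM on average in WT-RA and 8392 CPM in WT-O2, and of the 10 airway genes 3 rose and 2 fell in WT and 2 rose and 5 fell in GSDMD-KO lungs. The part of these shifts in the rise of ENaC RNA was not tested.

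Beside the fall of Aqp1, 10 endothelial genes (Pecam1, Cdh5, Kdr and others) summed to between 5120 and 5542 CPM in WT-RA and 3754 and 4037 CPM in WT-O2 lungs, and to between 4581 and 4930 CPM in KO-RA and 3418 and 4236 CPM in KO-O2 lungs. In WT lungs 6 of the 10 fell and 1 rose, and in GSDMD-KO lungs 5 fell and 1 rose, with median log2 fold changes of -0.42 and -0.24. Members with the widest spans were Tek, the angiopoietin receptor, at 323.9 ± 52.3 CPM in WT-RA and 58.6 ± 3.93 CPM in WT-O2 lungs, and Ramp2, a partner of the adrenomedullin receptor, at 545.5 ± 48.3 and 186.7 ± 23.4 CPM. Tie1, another receptor of endothelium, was at 389.1 ± 17.96 and 201.7 ± 13.9 CPM. Emcn went the other way, from 161.9 ± 3.32 CPM in WT-RA to 192.3 ± 13.75 CPM in WT-O2 lungs. Kdr was at 359.2 ± 16.8 CPM in WT-RA and 404.2 ± 65.2 CPM in WT-O2 lungs. In GSDMD-KO lungs Kdr was at 267.4 ± 27.9 CPM in room air and 472.0 ± 39.3 CPM in hyperoxia. These marker genes were named after their values were seen. Erythroid genes, which mark the other cells rich in Aqp1, summed to between 15750 and 18150 CPM in WT-RA and 2920 and 4151 in WT-O2 lungs. In GSDMD-KO lungs they ranged from 12670 to 26850 CPM in room air and from 5969 to 29920 CPM in hyperoxia, which overlapped. The part of endothelial and of erythroid content in the fall of Aqp1 was not tested.

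**Figure D3:**
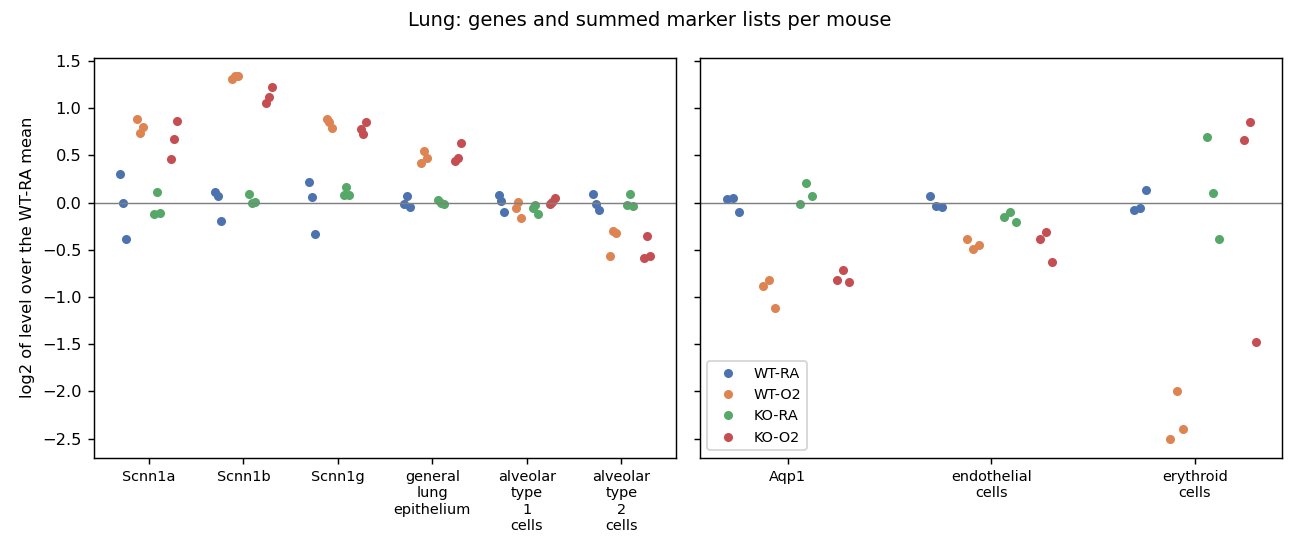
Level of the ENaC subunits and Aqp1, and of the summed marker lists of cell types, in each of the 12 lungs, as log2 of the level over the WT-RA mean; each point is a mouse. In all hyperoxic lungs the ENaC subunits and the general epithelial list lie above 0 and Aqp1 and the endothelial list below it, and the erythroid list is below 0 in all WT-O2 lungs and in 1 of 3 KO-O2 lungs.

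GSDMD-KO was next compared with WT within each exposure. The WT-O2 and WT-RA lungs enter these comparisons as well as the WT response above. Between KO-O2 and WT-O2 lungs none of the 8 genes passed in edgeR's test, and none in DESeq2, where 0.0416% of all genes passed in edgeR. At an unadjusted p under 0.05 there were 2 of the 8, and 6.21% of all genes. Scnn1b, given per lung above, was lower in each KO-O2 lung than in any WT-O2 lung, at 219.9 ± 12.7 against 251.9 ± 3.37 CPM (log2 -0.20, 95% interval -0.38 to -0.02, adjusted p = 0.77). Aqp5 was higher in each KO-O2 lung, at 246.2, 246.1 and 272.6 CPM against 233.9 CPM or less (log2 0.21, interval 0.02 to 0.39, adjusted p = 0.76). Groups without overlap were seen for 12.2% of all genes in this comparison. The intervals of the other 6 genes all included 0, the widest being that of Atp1b1 from -0.63 to 0.16 and the narrowest that of Nedd4l from -0.22 to 0.18.

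Between KO-RA and WT-RA lungs again none of the 8 passed in either tool, where 0.488% of all genes passed in edgeR. Nedd4l alone had an unadjusted p under 0.05, as did 10.5% of all genes, at 87.1 ± 4.24 CPM in KO-RA against 74.1 ± 10.9 CPM in WT-RA (log2 0.23, interval 0.04 to 0.43, adjusted p = 0.39), and its groups overlapped. Scnn1a, at 412.3 ± 38.0 against 423.3 ± 99.6 CPM, and Scnn1b, at 102.5 ± 3.56 against 100.3 ± 11.3 CPM, lay close together. The intervals of their log2 fold changes ran from -0.35 to 0.28 and from -0.15 to 0.21.

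The interaction asks whether hyperoxia moved a gene by a different factor in the 2 genotypes. None of the 8 genes passed it in edgeR or DESeq2, none at an unadjusted p under 0.05, and 0.00595% of all genes passed it in edgeR, with 6.72% at an unadjusted p under 0.05. The closest were Nedd4l, at a log2 difference of -0.25 (interval -0.53 to 0.03, adjusted p = 0.79), and Scnn1b, at -0.23 (interval -0.48 to 0.03, adjusted p = 0.8). For Scnn1a the interval ran from -0.54 to 0.35, for Scnn1g from -0.50 to 0.16 and for Aqp1 from -0.24 to 0.34. With a term for Y-linked expression the counts of genes that passed were 5, 5, 0, 0 and 0 in the 5 lung comparisons, as without it.

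Beyond the 8 genes, related genes moved in both directions with hyperoxia. The counts of the 5 related lists are to be read beside the shares of all genes that passed. These shares were 49.2% in WT and 46.7% in GSDMD-KO lungs. Of 20 regulators of ENaC 19 were tested, and 7 rose, 6 fell and 6 did not pass in WT lungs, against 8, 4 and 7 in GSDMD-KO lungs, and the median log2 fold changes were 0.08 and 0.09. St14, the membrane protease matriptase, was at 49.6 CPM in WT-RA and 96.2 CPM in WT-O2 and rose by 0.96 (adjusted p = 1.8e-07) in WT and 0.79 in GSDMD-KO lungs on the log2 scale. Spint1, an inhibitor of such proteases, rose by 0.79 and 0.88. Wnk4, a kinase that acts on salt transporters, rose by 0.68 and 0.60, and Stk39, a kinase downstream of the WNK family, by 0.41 and 0.50. Sgk1, the kinase that restrains Nedd4l, was at 241.1 and 248.0 CPM in WT-RA and WT-O2 lungs and did not pass (log2 0.04, adjusted p = 0.91). Sgk1 was named after its values were seen. The other regulators named here were taken by smallest p and all rose, while those that fell are not named.

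Of 14 other subunits and partners of the sodium pump 12 were tested, and 3 rose, 5 fell and 4 did not pass in WT lungs, against 2, 5 and 5 in GSDMD-KO lungs, and the medians were -0.06 and -0.17. Fxyd5, a modulator of the pump also called dysadherin, rose from 105.3 to 304.7 CPM without the deletion and from 96.3 to 262.9 CPM with it, by 1.53 (adjusted p = 6.4e-08) and 1.45 (adjusted p = 1.5e-07) on the log2 scale. Atp1b3, another beta subunit, fell by 0.67 and 0.50.

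Only 5 of 10 other aquaporins were tested, and 1 rose and 1 fell in each genotype, with medians of 0.21 in WT lungs and -0.30 in the knockout. Aqp11, an aquaporin of intracellular membranes, fell by 1.11 and 0.80, and Aqp3, a channel for water and glycerol, rose by 0.89 (adjusted p = 0.053) and 1.56 (adjusted p = 0.004), from levels of 1.53 and 0.820 CPM in room air. Of the 20 genes of chloride and bicarbonate transport 10 rose, 3 fell and 7 did not pass in WT lungs, against 8, 1 and 11 in GSDMD-KO lungs, with medians of 0.23 and 0.12. Ano1, a calcium-activated chloride channel, rose from 70.1 to 210.4 CPM without the deletion and from 75.4 to 250.7 CPM with it, by 1.59 (adjusted p = 6.6e-09) and 1.73 (adjusted p = 3.7e-09). Clcn5, a chloride transporter of endosomes, rose by 1.01 and 1.10, and Slc9a3r1, a scaffold that binds CFTR, by 0.58 and 0.53.

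Beta-adrenergic and cAMP signaling is the main hormonal stimulus of fluid clearance. Of its 20 genes 3 rose, 7 fell and 10 did not pass in WT lungs, against 3, 4 and 13 in GSDMD-KO lungs, with a median log2 fold change of -0.08 in each. Adora1, an adenosine receptor that lowers cAMP, rose by 1.61 and 1.49, Adora2a, an adenosine receptor that raises it, fell by 1.21 and 0.92, and Adcy3, an adenylyl cyclase, fell by 0.46 and 0.47. Pde4a, which degrades cAMP, rose by 0.56 and 0.84. None of the tested genes of these 5 lists passed in edgeR between the genotypes in room air or in hyperoxia or in the interaction, with 0 to 4 genes per list at an unadjusted p under 0.05.

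**Figure D4:**
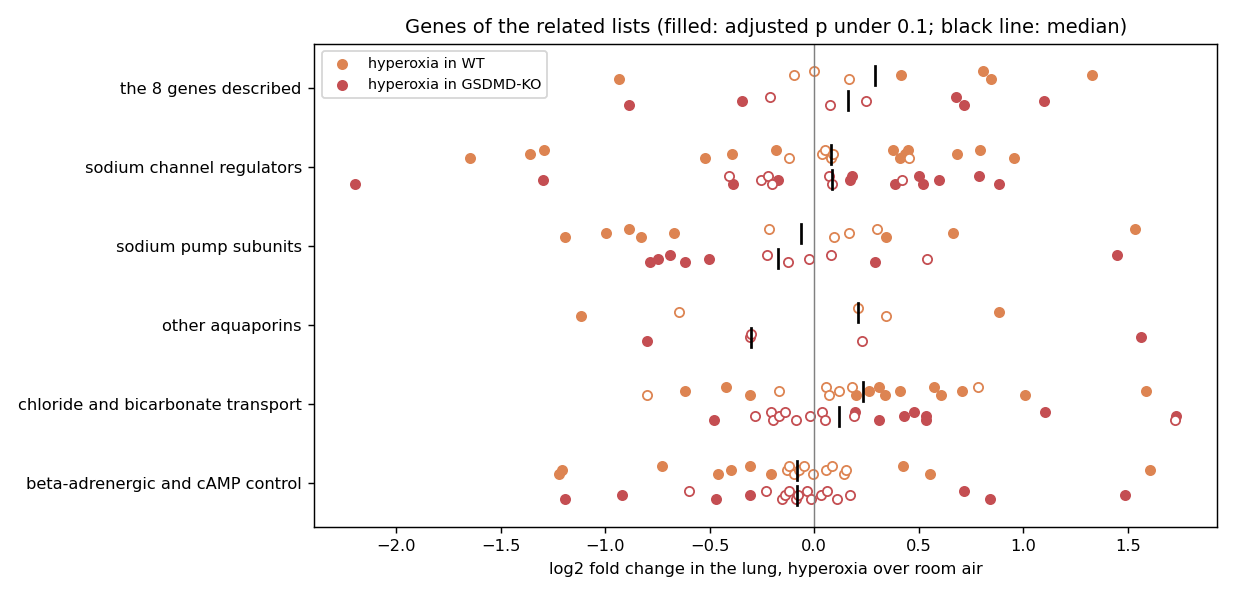
Log2 fold change in the lung, hyperoxia over room air, of the 8 genes and of each tested gene of the 5 related lists (rows), in WT (orange, upper) and GSDMD-KO (red, lower) mice; filled points had an adjusted p under 0.1 and black lines are medians. The points of every list lie on both sides of 0, and the medians lie between -0.30 and 0.29.

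As a description of pattern, the genes whose log2 CPM over the 12 lungs followed each member most closely were picked among 12186 genes whose mean reached 5 CPM. For Scnn1b these were Lad1, Gclc and Lrrn1, at Pearson r of 0.995, 0.994 and 0.992, and for Scnn1g they were Abca2, Ppip5k1 and Timp3, at 0.989, 0.984 and 0.977. Scnn1a was followed by Ctsh, Scnn1g and Pcx, at 0.971, 0.968 and 0.967, and Aqp1 by Rcsd1, Cyth3 and Sesn1, at 0.988, 0.987 and 0.986. These 12 lungs fall into a room air and a hyperoxia cluster, so any gene that responded strongly has a high r. The closest to Aqp5 was Cpsf7 at 0.815. Atp1b1 was followed by Ppl at 0.940, Cftr by Sema3d at 0.910 and Nedd4l by Raph1 at 0.963.

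In the retina Atp1b1 was by far the most abundant of the 8 genes, and it was lower after hyperoxia in both genotypes. Per kilobase, WT-RA retinas held 142.0 ± 16.8 CPM of Atp1b1, 29.4 ± 1.31 of Aqp1, 14.6 ± 2.83 of Nedd4l and 2.45 ± 2.17 of Aqp5 (SD, n = 3). Retina counts may already have been scaled, and undivided Atp1b1 also led, at 366.2 CPM against 77.1 CPM of Aqp1. Scnn1a at 0.124 ± 0.0552 and Cftr at 0.103 ± 0.0175 CPM per kb overlapped, and so did Scnn1b at 0.0378 ± 0.0331 and Scnn1g at 0.0316 ± 0.0205 CPM per kb. The filter on low counts kept 6 of the 8 genes among 19173, leaving out Scnn1b and Scnn1g. In WT retinas 1 of the 6 passed, lower in hyperoxia, where 5.16% of all genes passed, 3.11% higher and 2.05% lower, and in GSDMD-KO retinas 1 of the 6, also lower, where 7.82% passed, 4.38% higher and 3.44% lower.

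Atp1b1 was at 414.9, 352.4 and 331.4 CPM in WT-RA and at 278.9, 269.2 and 276.0 CPM in WT-O2 retinas. All hyperoxic retinas were below all room air retinas, and the log2 fold change was -0.41 (SE 0.11, adjusted p = 0.086). In GSDMD-KO mice it was at 447.6, 376.8 and 362.0 CPM in room air and at 283.6, 261.3 and 309.6 CPM in hyperoxia, a log2 fold change of -0.47 (SE 0.11, adjusted p = 0.044) without overlap, as for 26.2% of all genes. In WT retinas 9 of 13 alternative settings lost the call, with adjusted p from 0.0043 to 0.24, and in GSDMD-KO retinas 4 of 13, from 0.00052 to 0.18, while the direction held in all of them. With a term for Y-linked expression the log2 fold changes were -0.46 (adjusted p = 0.21) and -0.52 (adjusted p = 0.11). Without the 3 lens-rich retinas they were -0.60 (adjusted p = 0.075) and -0.53 (adjusted p = 0.067), the WT room air group then being 1 retina, assumed to vary like the others.

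**Figure D5:**
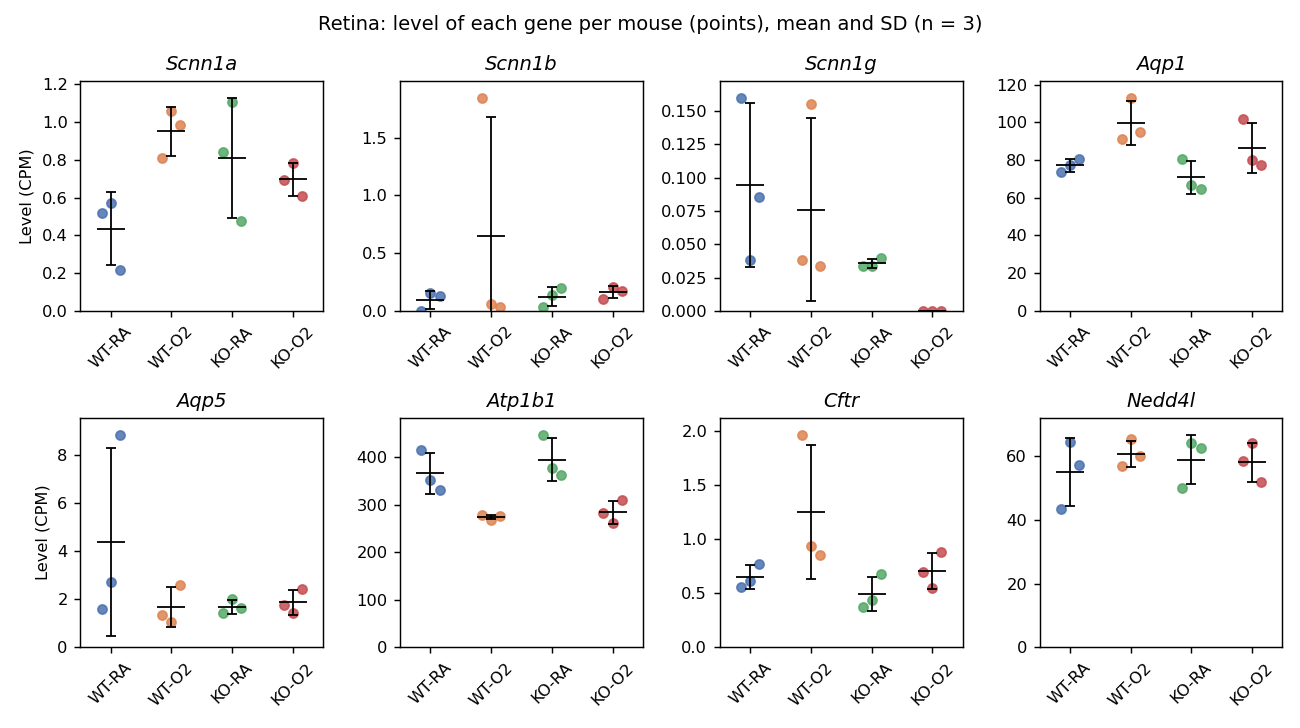
Level of each of the 8 genes in every retina, in CPM (linear axes from 0 that differ in scale between genes), by group; points are mice, and the line and bars are the mean and SD of 3 mice. The Atp1b1 points of hyperoxic retinas lie below those of room air retinas, single retinas stand out for Aqp5 in WT-RA and for Scnn1b and Cftr in WT-O2, and Scnn1g is near 0 throughout.

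Beside Atp1b1, which neurons express, 8 amacrine cell genes summed to between 1531 and 2004 CPM in WT-RA and 1277 and 1320 CPM in WT-O2 retinas, and to between 1470 and 1571 in KO-RA and 1150 and 1535 CPM in KO-O2 retinas. Of these 8 genes 2 fell in WT and 1 in GSDMD-KO retinas. Genes of rods summed to between 65000 and 74110 CPM in WT-RA, 58260 and 66520 in WT-O2, 59410 and 66250 in KO-RA and 50430 and 56980 CPM in KO-O2 retinas, and 0 of 8 passed in either genotype. The part of cell makeup in the lower Atp1b1 was not tested. The genes that followed Atp1b1 most closely over the 12 retinas, of 12103 whose mean reached 5 CPM, were Gpr158 and the neurofilament genes Nefm and Nefl, at Pearson r of 0.980, 0.978 and 0.977.

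Aqp1 was at 73.6, 77.3 and 80.5 CPM in WT-RA and at 91.0, 112.9 and 95.1 CPM in WT-O2 retinas. The groups did not overlap, as for 24% of all genes, but its log2 fold change of 0.37 (interval 0.09 to 0.65, adjusted p = 0.16) did not pass in edgeR, and DESeq2 gave an adjusted p of 0.067. In GSDMD-KO retinas, at 80.7, 67.0 and 64.7 against 101.9, 80.0 and 77.5 CPM, the groups overlapped and the log2 fold change was 0.29 (interval 0.01 to 0.57, adjusted p = 0.24). Endothelial genes summed to between 174.6 and 210.3 CPM in WT-RA and 317.6 and 362.1 in WT-O2, and to between 183.0 and 202.7 in KO-RA and 269.7 and 295.5 CPM in KO-O2 retinas, and 7 of 10 rose in WT and 6 of 10 in GSDMD-KO retinas. Sums of amacrine cell and rod genes are given above. The part of cell makeup in the Aqp1 levels was not tested. Without the lens-rich retinas the log2 fold changes of Aqp1 were 0.43 (adjusted p = 0.31) and 0.23 (adjusted p = 0.49).

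Nedd4l lay between 43.5 and 65.4 CPM over all 12 retinas, with intervals of -0.18 to 0.47 in WT and -0.35 to 0.30 in GSDMD-KO for hyperoxia. Aqp5 was at 1.60, 2.74 and 8.86 CPM in WT-RA and between 1.06 and 2.62 CPM in all other retinas. Its highest value was in the retina with the highest lens sum, and the log2 fold change of -1.39 for hyperoxia in WT (adjusted p = 0.23) became 0.06 without the 3 lens-rich retinas. The part of lens or other eye tissue in this value was not tested.

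The remaining genes were near the limit of detection. Scnn1a was counted 5 to 15 times in the WT-RA and 21 to 34 times in the WT-O2 retinas, at 0.520, 0.572 and 0.214 CPM against 0.807, 1.06 and 0.986 CPM. The groups did not overlap, but the log2 fold change of 1.12 (interval 0.02 to 2.21, adjusted p = 0.28) did not pass, and in GSDMD-KO retinas it was -0.22 (interval -1.29 to 0.85). Cftr was at 0.560 to 0.771 CPM in WT-RA and at 1.96, 0.935 and 0.850 CPM in WT-O2 retinas, a log2 fold change of 0.94 (interval -0.09 to 1.98, adjusted p = 0.33). In GSDMD-KO retinas it was at 0.371 to 0.675 CPM in room air and 0.547 to 0.881 CPM in hyperoxia (log2 0.52, interval -0.53 to 1.56). Scnn1b was counted 48 times in WT-O2 replicate 1, which was also the highest for Cftr with 51 counts, and 0 to 6 times in the other 11 retinas. Scnn1g was counted 0 to 5 times per retina, and 0 times in each of the KO-O2 retinas, where a count of 0 allows up to 3.

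Between the genotypes none of the 6 tested genes passed in the retina in edgeR or DESeq2. Between KO-O2 and WT-O2 retinas 1.27% of all genes passed and 12.6% had an unadjusted p under 0.05, as did 0 of the 6. Scnn1a was lower in each KO-O2 than in any WT-O2 retina (log2 -0.45, interval -1.52 to 0.62), where 19.9% of all genes did not overlap. Between KO-RA and WT-RA retinas 0.00522% passed and 12.7% had an unadjusted p under 0.05, among them 1 of the 6, Aqp5, at a log2 fold change of -1.37 (adjusted p = 0.35) that became 0.11 without the lens-rich retinas. In the interaction, 0.00522% of all genes passed and 10.6% had an unadjusted p under 0.05, as did 0 of the 6. The interaction intervals were wide for Scnn1a (-2.87 to 0.19) and Aqp5 (-0.19 to 3.26) and narrower for Atp1b1 (-0.41 to 0.29) and Aqp1 (-0.48 to 0.32).

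In the retina, the related genes are to be read beside the 5.16% of all genes that passed in WT and the 7.82% in GSDMD-KO mice. Of 19 tested regulators of ENaC 1 fell in WT and 2 in GSDMD-KO retinas, Tsc22d3, a glucocorticoid-induced gene, by 0.47 and 0.43, and Sgk1 by 0.75 (adjusted p = 0.082) in GSDMD-KO retinas. Fxyd5, as in the lung, rose, from 16.8 to 44.3 CPM in WT retinas and from 12.2 to 28.8 CPM in the knockout (log2 1.39, adjusted p = 0.001, and 1.24, adjusted p = 0.0022), and was lower in KO-O2 than in WT-O2 retinas (log2 -0.62, adjusted p = 0.073). Of the 12 pump genes tested 1 rose in WT and 2 in GSDMD-KO retinas, where Fxyd1, a pump modulator of heart and glia, rose by 0.82 (adjusted p = 0.069). Of 8 other aquaporins 1 fell in each genotype, Aqp6 by 1.26 (adjusted p = 0.046) in WT and Aqp4, the water channel of Mueller glia, by 0.53 (adjusted p = 0.03) in GSDMD-KO retinas.

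Of 19 genes of chloride and bicarbonate transport 2 rose in WT and 2 rose and 1 fell in GSDMD-KO retinas. Slc4a4, a sodium bicarbonate cotransporter, rose by 0.87 (adjusted p = 0.056) and 0.71 (adjusted p = 0.085), and Clic4 by 0.81 (adjusted p = 0.015) in WT retinas. In GSDMD-KO retinas Clcn2, a chloride channel, rose by 0.59 (adjusted p = 0.044) and Clic6 fell by 2.41 (adjusted p = 0.096). Genes of the retinal pigment epithelium summed to between 356.7 and 2836 CPM in KO-RA and 108.2 and 288.1 CPM in KO-O2 retinas. Of these 9 genes 0 passed, with 7 at an unadjusted p under 0.05 and a median log2 fold change of -2.41. The part of such eye tissue in the Clic6 value was not tested. Of 20 genes of cAMP control 2 rose and 1 fell in WT retinas, Adora2a by 1.92 (adjusted p = 0.019) and Adcy4, an adenylyl cyclase, by 1.49 (adjusted p = 0.027) upward and Grk2, a receptor kinase, by 0.33 (adjusted p = 0.097) downward, and none passed in GSDMD-KO retinas in edgeR, with 2 at an unadjusted p under 0.05. None of the tested genes of the 5 lists passed the interaction in edgeR, with 0 to 2 per list at an unadjusted p under 0.05, and differences between the tissues were not tested. Endothelial genes, whose sums are given above, were higher in hyperoxic than in room air retinas of both genotypes. The part of cell makeup in the changes of the related lists was not tested in either tissue.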

How the data were processed

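RNA from 12 lungs and 12 retinas, 3 mice in each of 4 groups per tissue, was sequenced by BGI. Reads were assigned to mouse transcripts with kallisto and brought to gene level with tximport by the authors. For each tissue, a single table of expected counts, which are estimated and need not be whole, was deposited. The processing notes name mm10 and the study's methods a later build, and tximport's settings are not given in the sources used here. Few retina values were near whole numbers, so counts may have been scaled, and tests were made within a tissue only.

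After rounding, edgeR 4.0.16 (R 4.3.3) was run with TMM normalization, filterByExpr by group, 1 model of all 12 libraries of a tissue with a term per group, robust quasi-likelihood F-tests, and Benjamini-Hochberg adjustment over all genes tested (16819 in the lung, 19173 in the retina). Every adjusted p is from this test unless DESeq2 1.42.0 is named. SE is the size of the log2 fold change divided by the root of F. Levels are CPM with TMM factors. The p-values set each difference against the spread between mice, which was estimated from all 12 libraries of a tissue. The median total was 29226529 per lung and 27827879 per retina. The code was tested on simulated data for hyperoxia in WT. Of 100 genes changed 1.5-fold, 74 were recovered in the lung and 19 in the retina. Of 100 genes changed 2-fold, 100 were recovered in the lung and 78 in the retina. Small changes in the retina could thus often be missed. Among the unchanged genes 15 passed in the lung and 7 in the retina. The changed genes were drawn above a limit of level that Scnn1a, Aqp5 and Cftr did not reach in the retina. Far fewer genes changed than in the real lungs, and no lens-rich retinas were simulated, so the shares recovered in the real data may differ.

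The 8 genes and the related and marker lists were chosen with earlier results of these data known. All 8 genes are described in every comparison. Of each related list at most 3 genes per comparison are named by smallest p, with Sgk1 in the lung added. Of each abundant gene the closest patterns were taken, not all of which are given here. Alternatives were RLE size factors, no filter, DESeq2, the compared groups alone, a term for Y-linked expression (over 20 CPM), an adjusted p under 0.05 and leaving out each mouse. Leaving out 3 lens-rich retinas was added after seeing the data. Protein sequences were not analysed here, and some genes of the lists are not reported here by name.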

Additional observations from a re-analysis of the deposited data

Results flagged for a closer look

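The log2 fold change of Aqp1 with hyperoxia had opposite signs in the 2 tissues of WT mice. It was -0.935 in the lung, where it passed, and 0.37 in the retina, where it did not (adjusted p = 0.16). Aqp1 levels of the exposures did not overlap in either tissue, as for 49.8% of all lung genes tested and 24% of retina ones. Summed endothelial genes averaged 5275 CPM in WT-RA and 3882 CPM in WT-O2 lungs. In retinas they averaged 197.8 CPM in WT-RA and 332.8 CPM in WT-O2. The part of endothelial content in these Aqp1 values was not tested. The difference between the tissues was not tested, and the exposures differed in oxygen, age and recovery.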

How the results depend on the processing

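In the lung the number of the 8 genes that passed was within 1.5 times its reported value under each alternative run, and all rises of the ENaC subunits and falls of Aqp1 kept their direction and passed in all 12 alternatives. RLE size factors, another scaling, moved no comparison's median by 0.1 or more on the log2 scale. In the retina, where 1 gene passed in each hyperoxia comparison, none passed in WT with an adjusted p under 0.05 (0), with no filter on low counts (0), with a term for Y-linked expression (0) or with the compared groups alone (0), and 2 passed with DESeq2, whereas none passed in GSDMD-KO retinas with the term (0) or the groups alone (0). Without 1 mouse these counts ranged from 0 to 1 in WT and from 0 to 1 in GSDMD-KO retinas. The cause was not tested.

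The sign turned only for values that did not pass. In the lung, Aqp5 under hyperoxia in WT was -0.015 with the Y-linked term and -0.003 with the compared groups alone. In the retina, the Y-linked term gave -0.208 for Aqp5 and 0.006 for Nedd4l under hyperoxia in GSDMD-KO. Without the lens-rich retinas, Aqp5 was 0.062 under hyperoxia in WT and 0.107 between KO-RA and WT-RA, Nedd4l 0.027 under hyperoxia in GSDMD-KO, and Atp1b1 -0.019 between KO-RA and WT-RA and 0.07 in the interaction.

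Without 1 mouse, log2 values in the lung ranged as follows. Under hyperoxia in WT, Nedd4l ranged from -0.197 to 0.011, Aqp5 from -0.04 to 0.065 and Atp1b1 from -0.037 to 0.398. Between KO-O2 and WT-O2, Cftr ranged from -0.062 to 0.105 and Nedd4l from -0.043 to 0.006. Between KO-RA and WT-RA, Scnn1a ranged from -0.199 to 0.139, Scnn1b from -0.06 to 0.083, Scnn1g from -0.033 to 0.229 and Atp1b1 from -0.067 to 0.369. In the interaction, Scnn1a ranged from -0.274 to 0.064 and Aqp1 from -0.038 to 0.111.

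Without 1 mouse in the retina, hyperoxia in GSDMD-KO gave Scnn1a from -0.485 to 0.074, Nedd4l from -0.126 to 0.055 and Aqp5 from -0.085 to 0.309, and hyperoxia in WT gave Nedd4l from -0.004 to 0.271. Between KO-O2 and WT-O2, Aqp5 ranged from -0.076 to 0.628, Atp1b1 from -0.011 to 0.112 and Nedd4l from -0.138 to 0.012. Between KO-RA and WT-RA, Nedd4l ranged from -0.047 to 0.228. In the interaction, Aqp1 ranged from -0.216 to 0.024, Atp1b1 from -0.157 to 0.041 and Cftr from -0.65 to 0.053.

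No paired analysis was possible because the labels give each mouse its own identity and no number shared between groups. Variation among 3 mice limits what can be seen of the abundant genes, and counting error limits Scnn1a, Scnn1b, Scnn1g and Cftr in the retina.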
